A study of Mus musculus with 18 samples.

Results

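Read 3′ ends were counted along the stretch of the mouse 45S pre-ribosomal RNA gene (Rn45s) that had been set out as its 18S rRNA, at chr17:39847004-39848829 of GRCm38. The stretch spans 1826 bases, of which 1484 are listed in the count table, out of 3869 listed positions of Rn45s and 1825851 in all genes. The coordinates did not match the label fully. An rRNA transcript of 1849 bases annotated in GENCODE release M21 covers chr17:39846353-39848201, and the reverse complement of its annotated strand reads as 18S rRNA. The stretch therefore holds the downstream part of 18S rRNA, positions 652 to 1849 counted from the first base of that transcript, followed by 628 bases after its end, where the first internal transcribed spacer follows 18S rRNA. The first 651 bases of 18S rRNA lie outside it. Of the listed positions, 1156 were inside the annotated rRNA and held 737170 counts, and 328 were after its end and held 773 counts, 0.105% of the total. The 332 positions that reached 10 counts in 3 or more libraries were all inside the annotated rRNA. A non-coding gene on the plus strand, Gm42418, overlaps most of the stretch, as does AY036118, and the table assigns these positions to Rn45s.

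The 9 libraries were made from 4T1 cells, a mouse mammary carcinoma line, carrying lentiviral mCherry and Renilla luciferase and grown with puromycin. The groups were 4T1 WT and 2 knockout clones, Snord67KO-1 and Snord67KO-2, each clone a line grown from 1 CRISPR-edited cell, with 3 biologic replicates each. All 9 libraries were oxidized. The 9 control samples of the series were not analysed here, so no level without oxidation is given beside the values below. Snord67 itself was not analysed here either, so the genotype labels were not checked against it. Poly(A) RNA was selected before fragmentation, so the ribosomal counts come from rRNA that remained after selection. The libraries held 212463 to 737219 counts, and Rn45s took 19.3% to 32.4% of them. Marked mispriming positions took up to 17.8% of a library (4T1 WT replicate 2), but only 6 of the listed positions carried the mark, all after the annotated end.

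In 2′-O-methylation, a methyl group is placed on the ribose of a nucleotide. In rRNA the enzyme fibrillarin does this at sites chosen by box C/D small nucleolar RNAs, each of which pairs with the rRNA around its target base. The 18S rRNA is the RNA of the small ribosomal subunit, where the codon of the mRNA is read, and many of its methylated bases lie in conserved stretches. In RibOxi-seq, periodate oxidation removes fragments that end in an unmethylated ribose, so the last base of a read marks a candidate methylated base. Snord67 guides C60 of U6 snRNA and is not a known guide of 18S rRNA. The comparison asks whether the methylated sites of 18S rRNA read alike in wild type and knockout cells.

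A list of 40 sites known to be ribose-methylated in human 18S rRNA was placed on the mouse sequence by base identity, without the counts. The list came from general knowledge and may be incomplete. A position called no known site below is one outside this list, which does not mean that it is unmethylated. The human numbers matched 8 sites directly and 31 sites after an offset of 7 bases, so that 39 of 40 were placed. Um1804 was placed after the counts had been seen, by counting back from the end of the rRNA. Of these sites, 18 lie in the stretch and 22 upstream of it. Names give the methylated base and its human number (Cm1391, position 1398 here). The windows below, from the GENCODE M21 transcripts and on the plus strand of GRCm38, are those the results turn on, with the listed sites in capitals. The first 4 are the site with most counts, the site with the second most, the site with the highest score and a pair of sites separated by 1 base.

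Cm1391 with Am1383, chr17:39847740-39847760: gaAcgagactCtggcatgcta

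Um1804, chr17:39848126-39848146: cggtcgaactTgactatctag

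Am1678, chr17:39848027-39848047: TgcgttgattAagtccctgcc

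Um1326 and Gm1328, chr17:39847675-39847695: ccgtgggtggTgGtgcatggc

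The next windows hold the 3 sites whose counts, scaled to the library or to the stretch, were higher in every knockout library than in every 4T1 WT library. Um1442 and Gm1447 share a window because they are 5 bases apart.

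Um1442 and Gm1447, chr17:39847796-39847816: caactTcttaGagggacaagt

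Cm797, chr17:39847146-39847166: gggcccgaagCgtttactttg

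The last window of the set shows Um1668, the known site without a peak, with Am1678 at its 3′ end.

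Um1668 and Am1678, chr17:39848017-39848037: gccataagctTgcgttgattA

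The 18 known sites held most of the counts of the stretch. Their share of its counts was 86.4% ± 2.59 (SD, n = 3) in 4T1 WT, then 89.1% ± 0.603 in Snord67KO-1 and 90.1% ± 1.31 in Snord67KO-2. In single libraries it ran from 84.0% to 91.0%, and the ranges of 4T1 WT and of the knockout libraries overlapped. The 14 positions with 10000 or more counts over all libraries were all known sites and together held 86.8% of the counts. Between 1000 and 10000 counts there were 6 positions, of which 2 were known sites. A further 215 positions had at least 100 but under 1000 counts, 1 of them a known site, and 725 had at least 10 but under 100. Another 446 positions had 1 to 9 counts, among them 1 known site, and 78 were at 0 in every library. The 15 positions with the highest totals were all known sites.

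**Figure D1:**
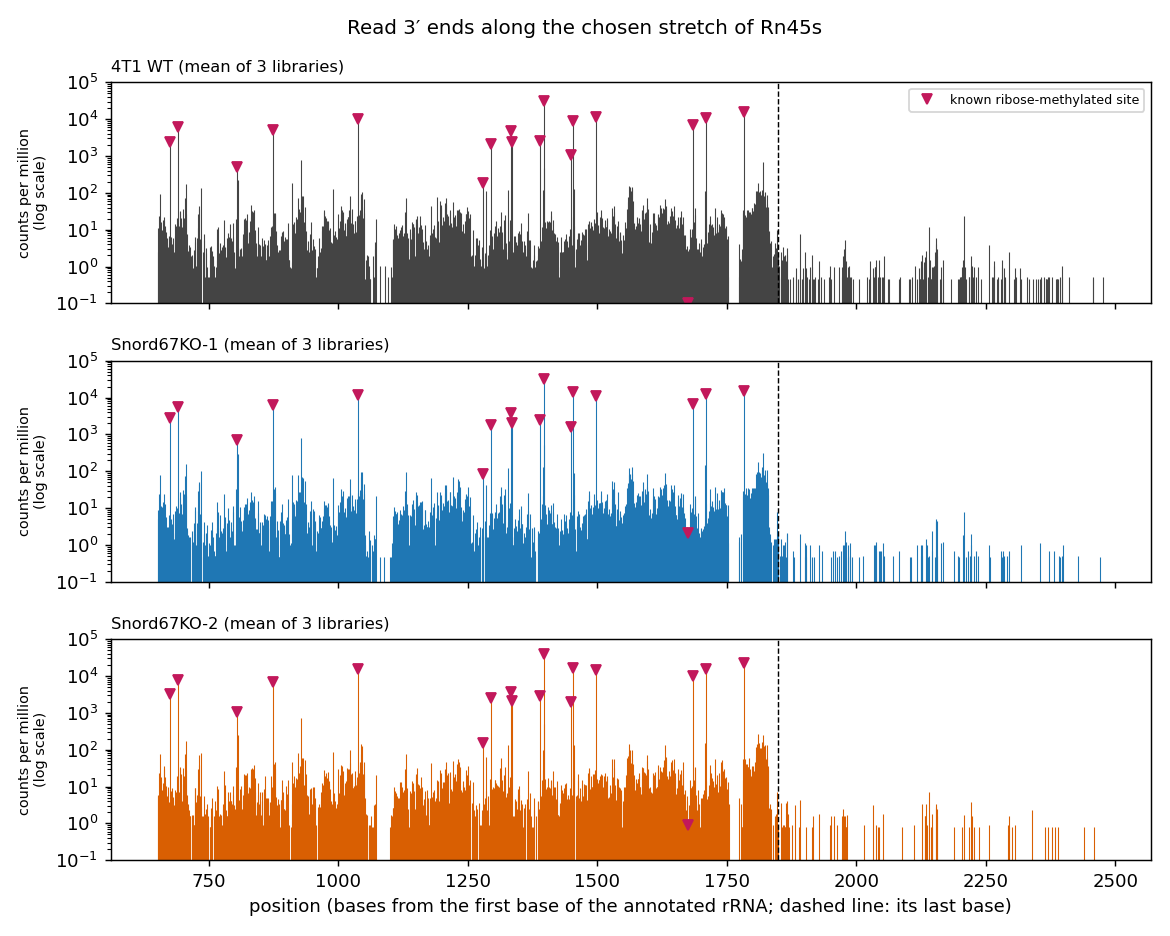
Mean read 3′ ends per library, scaled to the library total (CPM), on a log y axis at each position of the stretch (x axis, bases from the first base of the annotated rRNA), with 1 panel per genotype of 3 libraries each. Triangles mark the 18 known ribose-methylated sites, a triangle on the lower edge stands for a mean of 0 (Um1668 in 4T1 WT), and the dashed line is the end of the annotated rRNA, after which 773 counts lie.

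The same sites stood out by the Nm score, the count at a base over the mean count of its 2 neighbors, with counts of 0 set to 1. The median score of the 18 known sites was between 389 and 764 in each library, against 0.964 to 1 for the 1180 other bases of the annotated rRNA in the stretch. The 95th percentile of those other bases was 3 to 3.71. When the 17 sites placed by base identity were moved 1 base toward the 5′ end, their median score was at most 0.00713, and 1 base toward the 3′ end it was at most 0.00383, against 295 to 755 in place. Low scores 1 base away are built in, since the count of the site is then in the denominator. Shares of the counts do not have this limit. The 17 sites held 72.3% to 80.0% of the counts of the stretch in place and 0.386% to 0.607% when moved 1 base toward the 5′ end. Counts therefore fell on the listed base itself in all 9 libraries. The 22 known sites upstream, which are not part of the stretch, had median scores of 210 to 452.

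**Figure D2:**
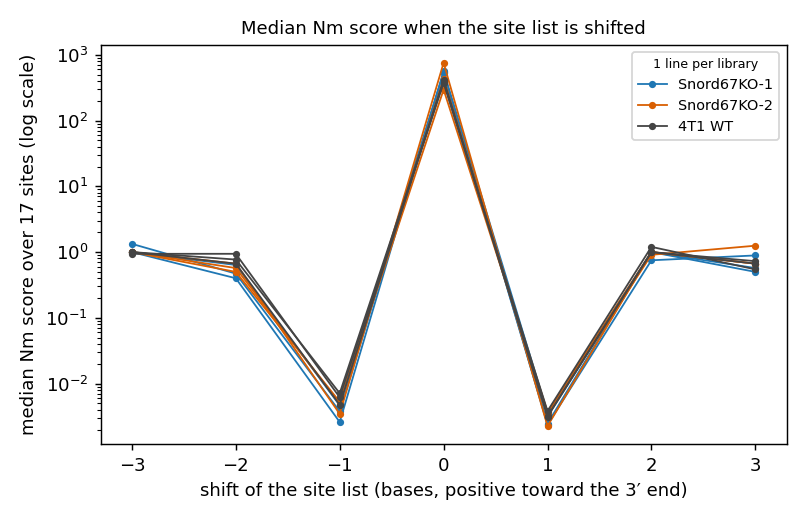
Median Nm score over 17 known sites (y axis, log scale) when the list is moved by up to 3 bases along the rRNA (x axis), 1 line per library. Each of the 9 libraries has its maximum, between 295 and 755, at a shift of 0 and falls below 0.01 at a shift of 1 base in either direction. At a shift of 1 base the count of the site is in the denominator of the score, which makes it low.

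Among the 332 positions, 42 had a score of 2 or more in every library and are called peaks here, 17 of them known sites and 25 outside the list. Only Um1668 among the known sites was no peak. Just inside the limit, positions 825, 903, 999, 1366 and 1731 had a lowest score of 2, and just outside it position 1728 had 1.88 and position 1649 had 1.85, with 80 to 222 counts each. None of these is a known site, and with a limit of 3 the 17 known sites were among 31 peaks.

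Cm1391 (base 39847750), the target of Snord28, had the highest count of the stretch in every library. It had 22809, 18262 and 22999 counts in the 4T1 WT libraries, 20223, 17355 and 22978 in Snord67KO-1, and 9974, 14851 and 14687 in Snord67KO-2. Its share of the counts of the stretch was 22.8% ± 0.261 (SD, n = 3) in 4T1 WT, then 22.2% ± 0.782 in Snord67KO-1 and 21.7% ± 0.869 in Snord67KO-2. This was the steadiest share of all known sites, with a coefficient of variation of 3.51% over the 9 libraries, against a median of 18.6%. Its Nm score was 103 to 184, with 1.44% of its count at the base before it and 0.0433% at the base after it.

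Um1804 (base 39848136), the target of Snord20, came second, with 81530 counts in all. Its share was 11.2% ± 1.87 (SD, n = 3) in 4T1 WT, then 10.4% ± 0.675 in Snord67KO-1 and 12.3% ± 1.12 in Snord67KO-2, and the groups overlapped. Its score was 542 to 1154.

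Cm1703, the target of Snord43, had 60422 counts, Gm1447 had 60200, Am1031, the target of Snord59, had 56743, and Gm1490, the target of Snord25, had 56007. Cm1703 lies in the decoding region of the small subunit. The shares of these 4 sites over the 9 libraries ran from 4.08% to 10.5%, and for Cm1703, Am1031 and Gm1490 the groups overlapped. The spread was widest among the 4T1 WT libraries. Am1031 had 4172, 7009 and 8080 counts there, which were shares of 4.18%, 8.86% and 7.93%, and the knockout libraries lay between 7.42% and 8.94%. Gm1490 had shares of 5.22%, 10.5% and 8.19% in 4T1 WT and 6.90% to 8.14% in the knockout libraries.

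Am1678 had 35532 counts and the highest mean score of the stretch, 1138. Its scores were 486, 1103 and 804 in 4T1 WT, then 1725, 1222 and 725 in Snord67KO-1, and 1288, 1780 and 1112 in Snord67KO-2. The libraries of the 3 groups overlapped. Since 0 is set to 1 at the neighbors, scores of this size rest on a few counts beside the site. Gm1328, the target of Snord32a, had the second highest mean score, 951, followed by Um1804 with 883 and Am1383, the target of Snord30, with 882.

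Gm683 had 30351 counts and Gm867 28901. Um1326, the target of Snord33, had 20208, Am668, the target of Snord36, had 12930, and Am1383, Gm1328 and Um1288 had 12793, 10688 and 10182. Um1326 and Gm1328 are separated by 1 base, which had 0.0445% of the count of Um1326, and both were separate peaks in every library. Um1326 had 4.01%, 2.60% and 3.35% of the counts of the stretch in 4T1 WT, then 2.65%, 3.05% and 2.04% in Snord67KO-1 and 1.80%, 1.91% and 2.44% in Snord67KO-2. All 3 Snord67KO-2 libraries were below all 3 4T1 WT libraries, and those of Snord67KO-1 overlapped 4T1 WT.

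The known sites with the smallest counts were Um1442, the target of Snord61, with 7031, Cm797 with 3281, Cm1272 with 693 and Um1668 with 5. Cm1272 had 187, 49 and 150 counts in 4T1 WT, then 70, 37 and 52 in Snord67KO-1 and 33, 57 and 58 in Snord67KO-2. Its score was 24.7 to 100, with 4T1 WT replicate 2 among the knockout libraries and the other 4T1 WT libraries above them. Um1668 (base 39848027) was at 0 in all 4T1 WT libraries and in 2 libraries of Snord67KO-2, and had at most 2 counts in any library. A count of 0 allows up to 3 counts, 4.07 to 14.1 CPM (counts scaled to the library total) in these libraries, a limit that covers counting error only. Am1678, 10 bases downstream of Um1668, had 2576 or more counts in every library.

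Bases that carry other modifications gave no such peak. The hypermodified uridine Uacp1248 had 3 counts, the acetylated cytidine Cac1337 had 6, and the base-methylated guanosine Gmethyl1639 had 133.

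**Figure D3:**
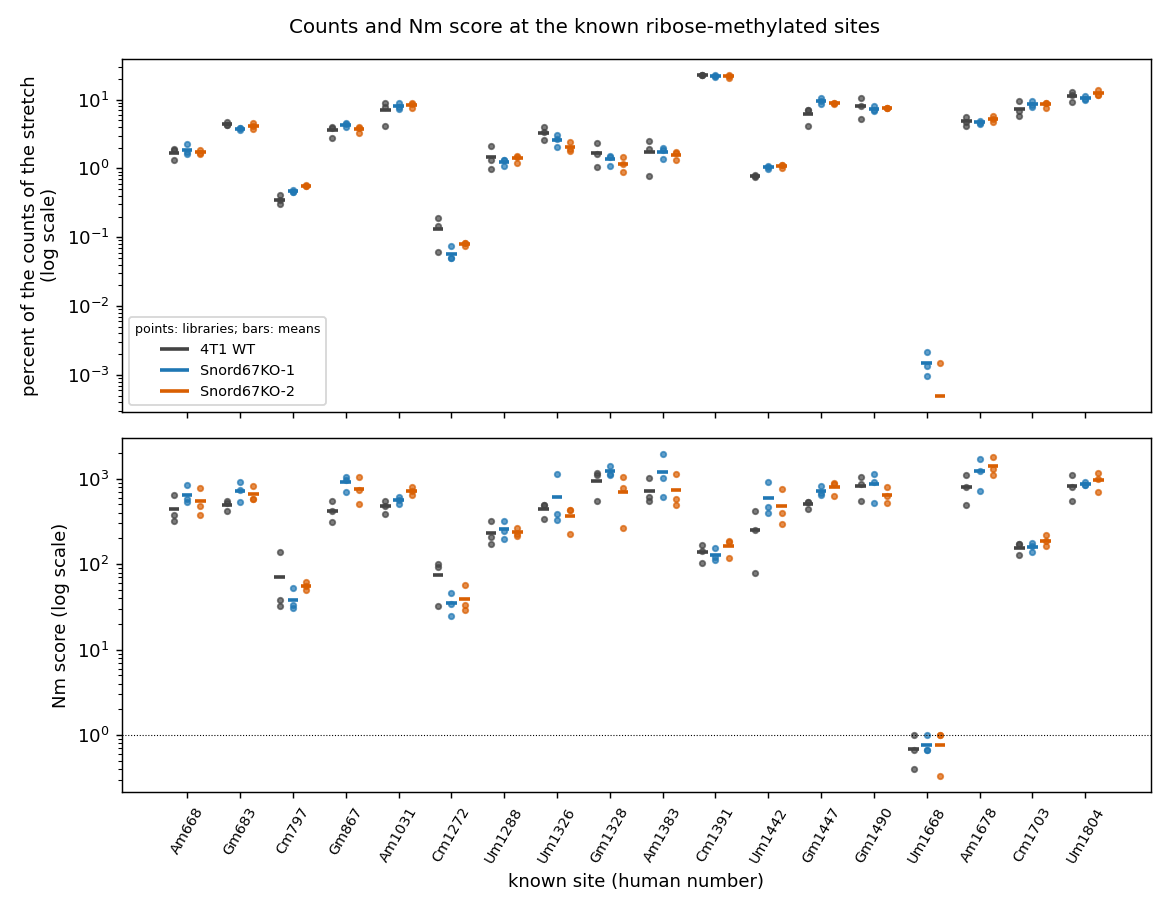
Percent of the counts of the stretch (upper panel) and Nm score (lower panel), both on log scales, at the 18 known sites (x axis, human numbers), with points for the 9 libraries and bars for the mean of each group of 3. Cm1391 has the highest share, 20.8% to 23.1%, and Um1668 has no score above 1. Shares of 0 (5 libraries at Um1668) cannot be drawn on the log axis.

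Of the 25 peaks outside the list, position 928 (base 39847280, a G) had the most counts, 3727, more than Cm797 and Cm1272. It had 548, 474 and 539 counts in 4T1 WT, then 418, 411 and 636 in Snord67KO-1 and 158, 291 and 252 in Snord67KO-2. Its score was 13.7 to 36.4 in the 9 libraries, above the 95th percentile of the other bases and below every score of the 14 known sites with 10000 or more counts. The window is shown for comparison with those above, with the peak base in capitals.

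Position 928, chr17:39847270-39847290: ccatgattaaGagggacggcc

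Position 806 (base 39847158, a U in the RNA) lies 2 bases after Cm797 and had 1251 counts. Its mean score, 84.8, was the highest of the positions outside the list and higher than that of Cm797, 54.8. It had 260, 49 and 154 counts in 4T1 WT, then 193, 178 and 163 in Snord67KO-1, and 52, 79 and 123 in Snord67KO-2, and the groups overlapped on every scale. Position 735 followed with a mean score of 45.0 and 555 counts. Since the list may be incomplete, their absence from it does not mark these positions as unmethylated or as new sites. Whether they are methylated cannot be told from oxidized libraries alone and was not tested.

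The counts of the stretch as a whole were then compared between genotypes. They were 12.4% to 16.3% of the library in 4T1 WT, then 13.9% to 15.3% in Snord67KO-1 and 16.7% to 20.9% in Snord67KO-2. With edgeR's quasi-likelihood test on totals per gene, the log2 fold change was 0.27 ± 0.37 (SE) for both clones averaged against 4T1 WT, with an adjusted p of 0.685, while 11.6% of all 6292 tested totals were called. For Snord67KO-1 it was -0.09 ± 0.42, with an adjusted p of 0.918 and 18% called by edgeR. For Snord67KO-2 it was 0.62 ± 0.42, with an adjusted p of 0.456 and 3.15% called by edgeR, and between the clones 0.71 ± 0.42, with an adjusted p of 0.410 and 3.85% called by edgeR. The counts were not called in any of the 4 comparisons. For both clones averaged the value was 0.04 without 4T1 WT replicate 2 and 0.55 without 4T1 WT replicate 3.

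Within Rn45s, the stretch took 61.9%, 64.1% and 60.9% of the counts in 4T1 WT, then 63.1%, 63.0% and 62.6% in Snord67KO-1 and 64.3%, 62.8% and 63.3% in Snord67KO-2. The 95% Wilson binomial intervals of single libraries were between 60.7% and 64.6% at their outer ends and cover counting error only. The difference between the knockout libraries and 4T1 WT was 0.916 percentage points (two-sided exact permutation test, p = 0.262, adjusted over 4 comparisons p = 0.40). The differences of the single clones were 0.631 (exact permutation p = 0.60) and 1.20 percentage points (exact permutation p = 0.30), where 3 libraries against 3 cannot go below 0.10. The spread between the 4T1 WT libraries was larger than these differences, and the difference of 0.916 was 0.233 without 4T1 WT replicate 3 and 1.81 without 4T1 WT replicate 2.

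Tests at single positions found no call in the stretch. By count, edgeR called 0 of its 332 tested positions for both clones averaged, and 0.0478% of all 2092 tested positions of the table. At an unadjusted p under 0.05 there were 25, of which 22 were higher in the clones and 3 lower, which is 7.53% of the 332 beside 10.2% of all tested positions. This number was 10 of 283 without 4T1 WT replicate 1, beside 124 of all 1728 tested positions. Without 4T1 WT replicate 3 it was 37 of 310, beside 374 of 1901. edgeR also called 0 in Snord67KO-1, 0 in Snord67KO-2 and 0 between the clones, against 0.0478%, 0.0478% and 0% of all tested positions. At an unadjusted p under 0.05 there were 8 in Snord67KO-1 (2.41%, beside 3.49% of all tested positions), 40 in Snord67KO-2 (12.0% beside 12.4%) and 11 between the clones (3.31% beside 2.53%). The median log2 fold change of the 332 positions by count was 0.31 for both clones averaged, beside -0.10 for all tested positions. On this scale the share of Rn45s in a library, which was 26.4% to 32.4% in Snord67KO-2 and 19.3% to 26.8% in 4T1 WT, enters every value.

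Taken relative to the other counts of Rn45s, 0 of 332 positions were called by edgeR in any comparison, with 0% of 2051 tested positions called in the table. For both clones averaged 27 had an unadjusted p under 0.05, 3 higher and 24 lower, which is 8.13% beside 17.6% of all tested positions. Without 4T1 WT replicate 1 there were 12 of 283, beside 213 of all 1688 tested positions, and without 4T1 WT replicate 3 there were 42 of 310, beside 470 of 1852. The median log2 change was -0.29, beside -0.46 for all tested positions. By the log2 Nm score, limma called 0 of 332 in each of the 4 comparisons and 0% of all 2092. For both clones averaged 6 had an unadjusted p under 0.05, 1.81% beside 13.1% of all tested positions. Without 4T1 WT replicate 2 there were 11 of 308, beside 76 of 1764. The median change of the log2 score in the fit of all libraries was -0.002, beside -0.32.

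DESeq2 was used as the alternative for the counts and made more calls. It called 4 positions of the stretch for both clones averaged, where it called 0.574% of all tested positions and 2.36% of those given an adjusted p. DESeq2 gave no adjusted p to 1583 of the 2092 positions in that comparison, so that 81 of the 332 positions of the stretch could be called. The 4 were Cm797 (log2 fold change 1.09, DESeq2 adjusted p = 6.15e-06), Um1442 (0.98, DESeq2 adjusted p = 6.55e-06), Gm1447 (1.11, DESeq2 adjusted p = 0.0155) and position 1631 (0.94, DESeq2 adjusted p = 0.0279), all higher in the clones. In Snord67KO-1 it called 1, Um1442, with 0.574% called in the table. In Snord67KO-2 it called 5, the former 4 and Um1804. There it called 1.15% of all tested positions and 4.36% of those given an adjusted p, which 86 of the 332 positions of the stretch had.

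The 17 known sites that passed the count filter lay on both sides of 0 relative to the rest of Rn45s. Known sites held 84.0% to 91.0% of the counts of the stretch and 92.8% to 95.3% of those of the upstream part of 18S rRNA. The rest of Rn45s is thus largely known sites, so a balance around 0 is built into this scale and does not show unchanged sites. On this scale, for both clones averaged, 9 of the 17 were above 0 and 8 below, with a median log2 change of 0.04. Single values ran from -0.93 (Cm1272) to 0.65 (Gm1447). edgeR called 0 of them. At an unadjusted p under 0.05 there were 5 of the 17, beside 8.13% of the tested positions of the stretch and 17.6% of all tested positions. By count, 16 of the 17 were above 0 and 1 below, with a median log2 change of 0.67, beside 0.31 for the 332 positions of the stretch. edgeR called 0 of them by count. At an unadjusted p under 0.05 there were 10 by count, beside 7.53% of the stretch and 10.2% of all tested positions. The share of Rn45s in a library enters these values. By the Nm score 12 were above 0 and 5 below, with a median log2 change of 0.20 and a median SE of 0.40. The 95% intervals held 0 at 16 of the 17 sites. The SE of a single site was 0.31 to 0.59, and the outermost ends of the 17 intervals were -1.99 and 2.63. The exception was Gm867, with a log2 change of the score of 0.97 and an interval of 0.11 to 1.84, which was not called (limma, adjusted p = 0.368).

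**Figure D4:**
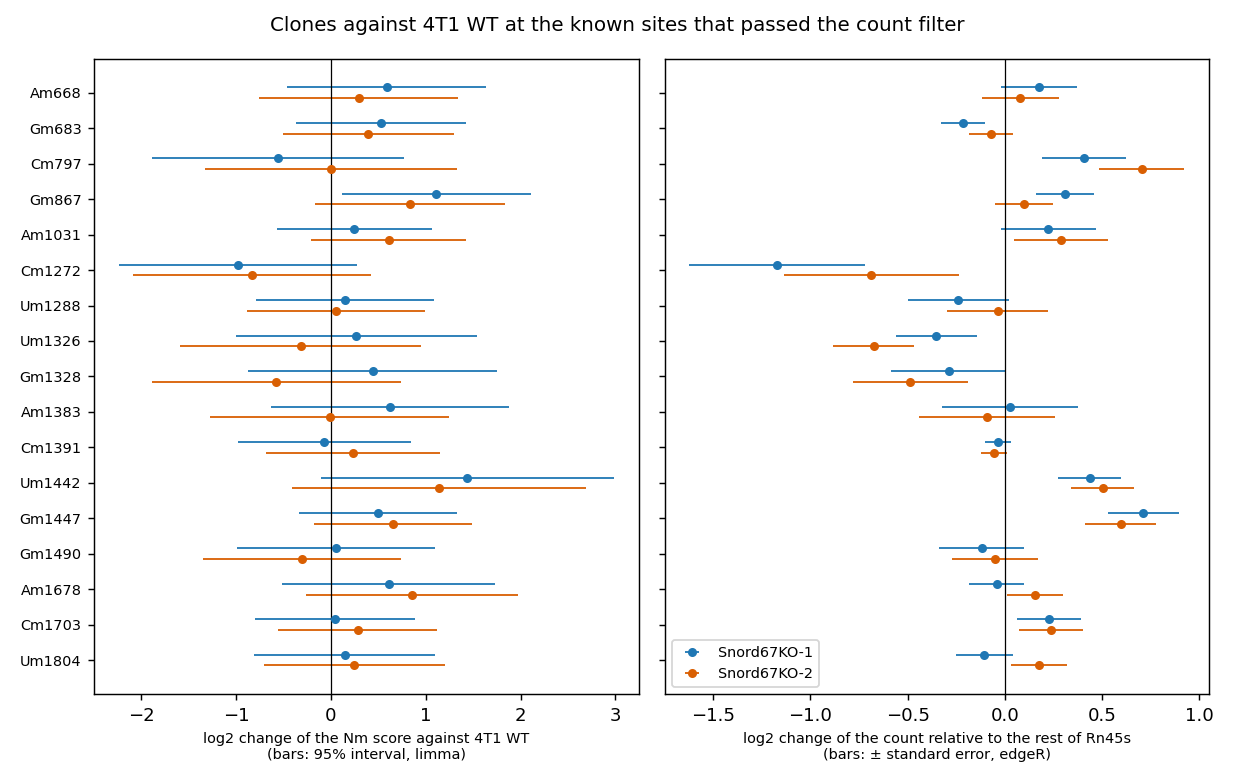
Log2 change against 4T1 WT of the Nm score (left, bars are 95% intervals from limma) and of the count relative to the rest of Rn45s (right, bars are ± 1 standard error derived from edgeR's F statistic) at the 17 known sites that passed the count filter (y axis), for each clone. In the right panel both clones lie on the same side of 0 at all sites but Am1383, Am1678 and Um1804. Gm1447, Um1442 and Cm797 are among those to the right and Cm1272 and Um1326 among those to the left. None of the 17 sites passed the adjusted threshold.

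Gm1447 (base 39847806) had the smallest p of the known sites relative to the rest of Rn45s. It had 7119, 3224 and 7151 counts in 4T1 WT, then 9810, 6500 and 10186 in Snord67KO-1 and 3813, 6139 and 6258 in Snord67KO-2. As shares of the stretch these were 7.14%, 4.08% and 7.02%, then 10.5%, 8.63% and 9.70%, then 8.61%, 9.01% and 8.85%. All 6 knockout libraries were above all 3 4T1 WT libraries. By count the log2 fold change was 1.16 ± 0.32 (SE) with an edgeR adjusted p of 0.442, and relative to the rest of Rn45s 0.65 ± 0.16 with an edgeR adjusted p of 0.266. Without 4T1 WT replicate 2, the lowest library, it was 0.44, with an edgeR adjusted p of 0.303. The Nm scores also did not overlap, 445, 537 and 530 in 4T1 WT against 636 to 894 in the knockout libraries, and the log2 change of the score was 0.58 ± 0.32 (limma, adjusted p = 0.454).

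Um1442 had 797, 623 and 757 counts in 4T1 WT, then 912, 788 and 1156 in Snord67KO-1 and 443, 755 and 800 in Snord67KO-2. Its shares were 0.799%, 0.788% and 0.743%, then 0.972%, 1.05% and 1.10%, then 1.00%, 1.11% and 1.13%, so that the groups did not overlap. The log2 fold change by count was 1.07 ± 0.25 (SE) with an edgeR adjusted p of 0.354, and relative to the rest of Rn45s it was 0.47 ± 0.14 with an edgeR adjusted p of 0.266. Its Nm scores overlapped, since 4T1 WT had 79.7, 415 and 252 and the knockout libraries 295 to 912.

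Cm797 (base 39847156) had 350, 320 and 307 counts in 4T1 WT, then 462, 338 and 470 in Snord67KO-1 and 248, 388 and 398 in Snord67KO-2. Its shares of 0.351%, 0.405% and 0.301% in 4T1 WT were below 0.493%, 0.449% and 0.447% in Snord67KO-1 and 0.560%, 0.570% and 0.563% in Snord67KO-2. The log2 fold change by count was 1.19 ± 0.26 (SE), the smallest p of the stretch on that scale, with an edgeR adjusted p of 0.316. Relative to the rest of Rn45s it was 0.56 ± 0.19 with an edgeR adjusted p of 0.266. The score did not follow the count. It was 140, 37.6 and 32.3 in 4T1 WT and 30.7 to 62 in the knockout libraries, and the base before Cm797 had 4.08% of its count.

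Groups that did not overlap were also counted over all tested positions. In CPM, 5 of 332 positions of the stretch were higher in every knockout library than in every 4T1 WT library, which is 1.51% beside 0.956% of all tested positions. They were Gm1447, Um1442, Cm797 and positions 1322 and 1455, the last being the base after Gm1447. Another 5 were lower, 1.51% beside 4.21% of all tested positions, and these were positions 990, 1159, 1208, 1285 and 1410. Position 1410 passed the count filter through the 4T1 WT libraries only, which favored a lower value in the clones. By the Nm score 2 were higher (Gm1447 and position 879), 0.602% beside 0.86%, and 4 lower (positions 911, 923, 1453 and 1800), 1.2% beside 2.44%. None of the positions that were lower on either scale was a known site. Positions 879, 923, 1159, 1208, 1322 and 1455, which had 64 to 275 counts over all libraries, are named here after their values had been seen.

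Relative to the rest of Rn45s and by the Nm score, the positions outside the list with the smallest p were lower in the clones. Position 1285 had 83, 72 and 72 counts in 4T1 WT, then 21, 19 and 39 in Snord67KO-1 and 13, 18 and 36 in Snord67KO-2. Its log2 change relative to the rest of Rn45s was -1.34 ± 0.35 (SE) with an edgeR adjusted p of 0.266, and its score overlapped between groups. Position 1410, which is no peak, had 24, 26 and 16 counts in 4T1 WT and 2 to 7 in the knockout libraries, with a log2 change of -1.79 ± 0.38 relative to the rest of Rn45s (edgeR, adjusted p = 0.266). It passed the count filter through the 4T1 WT libraries only. The filter thus favored a lower value in the clones there, and no conclusion is drawn from it. By the Nm score the smallest p belonged to position 1453, the base before Gm1447, with a log2 change of -1.12 ± 0.35 (limma, adjusted p = 0.368), followed by position 1800, with -1.23 ± 0.43 (limma, adjusted p = 0.368). Position 1800 would not have passed the count filter without the 4T1 WT libraries, so no conclusion is drawn from it either. Position 1453 had 3 to 22 counts in a library, and the count at Gm1447 is in the denominator of its score.

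Position 911, a peak outside the list, had 177, 168 and 43 counts in 4T1 WT, then 59, 59 and 24 in Snord67KO-1 and 6, 16 and 27 in Snord67KO-2. Its scores of 25.3, 84 and 21.5 in 4T1 WT were above all knockout libraries, which had 4 to 19.7. The log2 change of the score was -1.92 ± 0.74 (SE) and was not called (limma, adjusted p = 0.368).

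After the annotated end of 18S rRNA, the 328 listed positions had few counts in any group. They had 221, 104 and 129 counts in 4T1 WT, then 64, 47 and 82 in Snord67KO-1 and 17, 47 and 62 in Snord67KO-2. As a share of the stretch this was 0.160% ± 0.0535 (SD, n = 3) in 4T1 WT, then 0.0696% ± 0.00791 in Snord67KO-1 and 0.0650% ± 0.0249 in Snord67KO-2. Each 4T1 WT library was above each knockout library, the nearest being 0.127% and 0.0877%. The positions marked for mispriming held at most 4 of these counts in a library. No position in this region passed the count filter, so none was tested, and the share itself was compared after its values had been seen and is given without a test.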

How the data were processed

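RibOxi-seq counts of 9 oxidized libraries of 4T1 cells were used, 3 for each of 3 genotypes. The authors trimmed reads with cutadapt, merged pairs with pear, mapped them (STAR and mm10 per the labels) and deposited raw counts of read 3′ ends per base, with no normalization. How reads matching several rDNA copies were handled, and what the mispriming column means, are not given in the sources used here. Since PCR copies are not marked, intervals and limits cover counting error only.

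Positions that reached 10 counts in 3 or more libraries were tested over the whole table, in fits of all 9 libraries. The counts were tested with the quasi-likelihood test of edgeR 4.0.16 (TMM), once as they are and once with the log of the other counts of the gene plus 1 as offset (genes with at least 50 other counts). Standard errors given for edgeR were derived from its test, as the size of the log2 change over the square root of the F statistic. The log2 Nm score was tested with limma 3.58.1. DESeq2 1.42.0 was an alternative. Adjustment was by Benjamini-Hochberg with a threshold of 0.05. Shares of Rn45s were compared by two-sided exact permutation tests. Nothing in the labels ties replicates to separate cultures beyond the number, so p-values measure the spread between these libraries.

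Sites are named from general knowledge of human 18S rRNA and were placed on GENCODE M21 transcripts. The named positions were all peaks, the 10 highest by count and by score, the known sites, the 3 smallest p per test and those at the limit of the score. The members and lists were chosen with earlier results of these data known. The tests were tried on simulated counts. R 4.3.3 and Python 3.11.15 were used.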

Additional observations from a re-analysis of the deposited data

How the results depend on the processing

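The edgeR and limma tests of single positions called 0 in the stretch under every alternative run (16 for the counts, 14 relative to the rest of Rn45s and 14 for the score), except with DESeq2. DESeq2 called 4, 1 and 5 positions for both clones averaged, for Snord67KO-1 and for Snord67KO-2. In the table it called 2.36%, 0.574% and 4.36% of the positions given an adjusted p. The cause of the difference from edgeR was not tested. Leaving out single libraries gave 0 calls throughout. The number of peaks was 98 with a mean score of at least 2 in place of every library, 31 with a limit of 3, and 42 to 44 without single libraries. The median score of the known sites was 464 over the libraries, 432 without Um1804, 455 to 516 without single libraries, and 0.836 with the human numbers taken without an offset. With at least 20 counts in 3 libraries, 149 positions of the stretch were left, of which 3 were higher (2.01%, beside 1.12% of all 895) and 3 lower (beside 3.69%) in every knockout library by CPM, and 1 lower by the score (0.671% beside 2.01%). As shares of the stretch, 4 of 332 were higher and 10 lower (1.2% and 3.01%). This scale exists only within the stretch, so no share over all tested positions stands beside it and no conclusion is drawn. For Snord67KO-1 the log2 change of the total turned from -0.09 to 0.20 without 4T1 WT replicate 3 and to 0.02 without Snord67KO-1 replicate 1 (range without single libraries -0.32 to 0.20), and the difference in the share of Rn45s turned from 0.631 to -0.0518 percentage points without 4T1 WT replicate 3 (range -0.0518 to 1.52). Without single libraries, the log2 change of the total was 0.04 to 0.55 for both clones averaged, 0.40 to 0.91 for Snord67KO-2 and 0.52 to 0.87 between the clones. The differences in the share of Rn45s were 0.233 to 1.81, 0.518 to 2.09 and 0.161 to 0.899 percentage points. None was called in any setting.

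With the replicate block, edgeR and limma called 0 positions of the stretch. By count for both clones averaged, 20 of its 332 positions had an unadjusted p under 0.05, beside 153 of all 2092 tested positions. The log2 change of the total was 0.29. The share of Rn45s had an exact sign-flip p of 0.50 in each comparison, where 3 pairs cannot go below 0.25. Deviations from the group means of same-numbered libraries correlated between -0.56 and 0.73 over 9 pairs (median -0.12). For unlike numbers this was -0.76 to 0.50 over 18 pairs (median 0.04). The numbers thus did not pair the libraries throughout. Between 4T1 WT and Snord67KO-1 the values were 0.73 and 0.71 for replicates 2 and 3, and -0.25 for replicate 1. Whether some of these libraries were handled together was not tested.

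Depth limits the score, since the bases before and after a known site had a median of 0.215% and 0.152% of its count. Replicates of 4T1 WT differed more within the stretch than sampling noise and more than those of the clones (chi-square per degree of freedom 14.3 to 24.6, against 3.42 to 5.31 and 1.86 to 3.47).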

Other observations

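Of the 1198 bases of 18S rRNA in the stretch, 42 are not listed in the table, and most of them fall in 2 places. One lies between positions 1074 and 1102, and the other between positions 1755 and 1776, shortly before Um1804 at position 1784. Known sites lie outside both places. Position 1820, which is no known site and no peak, had 2152 counts, of which 925 were in 4T1 WT replicate 2 and 46 to 249 in each other library.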
